A study of Mus musculus with 2 samples.

Results

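The Wnt pathway genes described here are 38 named members of the pathway in the mouse, from ligands through receptors and the destruction complex to the TCF/LEF factors and the target gene Cdx1, out of 22238 protein-coding gene symbols in the annotation. The rule that chose them used names and roles and no measured value, though the list was set with earlier results of these data known, and all 38 were found in the annotation. The series is a chromatin immunoprecipitation and sequencing (ChIP-seq) experiment that maps where POU5F1, the POU-domain factor also called OCT4, sits on the genome. There is 1 group with 2 biological replicates of E14TG2a.4, a male embryonic stem cell line of strain 129/Ola whose labelled stage is embryonic, 3.5 day; both replicates trace to the same donor line and received no treatment named in the labels. No control library was analysed, and with 1 group no comparison between conditions can be made. The files hold peak positions and no expression values, so markers of the cell type could not be examined.

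In the canonical Wnt pathway, secreted Wnt ligands, which need the acyltransferase PORCN for their lipid modification, bind Frizzled receptors and the co-receptors LRP5 and LRP6. Without ligand, a destruction complex of AXIN, APC, GSK3 and casein kinase 1 marks β-catenin for degradation; ligand acts through Dishevelled to block that complex, and stabilised β-catenin then joins TCF/LEF factors on DNA. In mouse embryonic stem cells Wnt signalling supports self-renewal, TCF7L1 acts mainly as a repressor of pluripotency genes, and POU5F1 binds DNA at an octamer, often beside SOX2 on a composite SOX-POU element.

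The strongest peaks near any of these genes lay at Tcf7 and Tcf7l1, both TCF/LEF factor genes, and their sequences are shown because these were the only genes of the 38 with a peak in the list of each replicate. The stretches below are 300 bases around the peak centre on the plus strand of the reference mm9 (NCBIM37), which is not the 129/Ola sequence of the cells. Capitals mark a match to the composite SOX-POU element with up to 2 mismatches or an exact octamer ATGCAAAT, searched on both strands. The first is chr11:52099943-52100242, in intergenic sequence upstream of Tcf7, and the second is chr6:72737420-72737719, in an intron of Tcf7l1.

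Tcf7, 3411 bp upstream: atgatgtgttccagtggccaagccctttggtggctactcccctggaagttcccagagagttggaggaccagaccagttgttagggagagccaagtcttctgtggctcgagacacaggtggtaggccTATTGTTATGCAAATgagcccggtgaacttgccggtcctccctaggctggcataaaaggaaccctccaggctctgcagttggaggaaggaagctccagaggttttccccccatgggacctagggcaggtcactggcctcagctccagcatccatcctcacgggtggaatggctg
Tcf7l1, 740 bp downstream: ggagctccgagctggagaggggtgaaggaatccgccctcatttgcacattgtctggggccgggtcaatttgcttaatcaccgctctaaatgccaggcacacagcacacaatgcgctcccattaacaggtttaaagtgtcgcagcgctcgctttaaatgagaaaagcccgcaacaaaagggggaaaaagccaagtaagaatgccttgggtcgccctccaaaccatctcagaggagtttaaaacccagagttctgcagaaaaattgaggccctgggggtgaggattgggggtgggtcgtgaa

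The Tcf7 window held a composite element with 1 mismatch at chr11:52100069-52100083, whose last 8 letters are the exact octamer. The Tcf7l1 window held no match to either motif. An exact octamer lay in 2 further peaks of TCF/LEF factor genes, shown with 12 bases on each side: 1 in the intronic Tcf7l1 peak 29615 bp downstream of a start (chr6:72708591-72708598, plus strand) and 1 in the intronic Lef1 peak 5327 bp downstream (chr3:130821031-130821038, printed 5′ to 3′ on the minus strand).

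Tcf7l1, 29615 bp downstream: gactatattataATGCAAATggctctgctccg
Lef1, 5327 bp downstream: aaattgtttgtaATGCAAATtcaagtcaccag

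The TCF/LEF sites CTTTGAT and CTTTGAA were searched on both strands in the same windows, because TCF/LEF factors are the pathway's own DNA-binding output. The matches near Dvl3 and Gsk3b, both in intergenic peaks on chromosome 16 (chr16:20480399-20480405 and chr16:38070272-38070278, plus strand), are shown although their printing was chosen after they had been seen.

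Dvl3, 36714 bp upstream: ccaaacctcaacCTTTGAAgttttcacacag
Gsk3b, 18818 bp upstream: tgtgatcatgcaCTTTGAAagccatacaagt

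Around the peak centre, 100 bp on each side, the composite element was present in 2 of the 19 peaks near the Wnt genes (10.5%, exact 95% interval 1.30 to 33.1), at Tcf7 and Fzd8, and in 9.30% of all 5515 peaks of the list. The exact octamer was present in 2 of 19 (10.5%), at Tcf7 and Lef1, and in 13.4% of all peaks; the octamer of the second Tcf7l1 peak reached past the edge of that window. A TCF/LEF site was present in 3 of 19 (15.8%, 3.38 to 39.6), near Dvl3, Gsk3b and Cdx1, and in 10.9% of all peaks. For all 3 motifs the share over all peaks lay inside the interval of the Wnt gene peaks. These intervals are wide, and they treat the 19 peaks as independent although Tcf7l1 and Lef1 each held 4 of them. A match is a string of letters and was not tested for binding.

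The closest peak to any transcript start of the 38 genes lay at Fzd10, whose promoter is shown for that reason. The letters are the 250 bases upstream of the gene start from the RefSeq promoter table on GRCm38.p6 (chr5:128600856-128601105, plus strand), a table that holds 24 of the 38 genes.

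Fzd10 promoter: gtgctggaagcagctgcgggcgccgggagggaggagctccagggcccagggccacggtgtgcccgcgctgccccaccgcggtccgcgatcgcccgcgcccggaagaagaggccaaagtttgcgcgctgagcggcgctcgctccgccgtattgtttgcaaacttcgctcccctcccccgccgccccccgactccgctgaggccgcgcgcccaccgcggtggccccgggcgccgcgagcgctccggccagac

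This stretch is 76.4% G and C, and it held no octamer, composite element or TCF/LEF site on either strand. It is mostly not the sequence of the peak. The mm10 optimal peak of Fzd10 (chr5:128600537-128600872) overlaps only the upstream end of the stretch, and its summit, 401 bp upstream, lies outside. Of 32851 promoters in the table, read over the same 250 upstream bases, 1.60% held the octamer, 0.204% the composite element and 7.48% a TCF/LEF site.

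The deposited lists set the limits of what follows. On mm9 the deposited list of replicate 1 held 1330 peaks, that of replicate 2 held 6324, and the whole-series list held 5515. Each peak carries 1 deposited signal value whose scaling is not stated, so signals were read only against other peaks of the same list; the median signal was 6.84, 8.32 and 5.58 in that order. Read depth is unknown, and a signal averages over all cells, so fewer bound cells and weaker binding per cell cannot be told apart. On mm10 the authors gave an optimal list of 3994 peaks and, for each replicate, a relaxed list of 300000 entries that reaches far into background.

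Of the 38 Wnt genes, 13 had a whole-series peak centre within 50 kb of an annotated transcript start, or 34.2% (exact 95% interval 19.6 to 51.4), beside 27.3% of the 22200 other protein-coding genes. Within 10 kb the count was 9 of 38, or 23.7% (11.4 to 40.2), beside 8.63%. At 50 kb the share of other genes lay inside the interval, and at 10 kb it lay below it. Intervals cover counting error only, and genes of 1 pathway are not independent draws. The 9 genes with a peak within 10 kb were Tcf7, Tcf7l1, Lef1, Fzd5, Fzd8, Fzd10, Wnt5a, Apc and Cdx1.

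The 2 replicates gave very different counts. The replicate 1 list placed a peak within 50 kb of 2 of the 38 genes (5.26%, 0.644 to 17.7), beside 8.16% of other genes, and within 10 kb of the same 2, beside 2.28%. The replicate 2 list placed a peak within 50 kb of 13 genes (34.2%), beside 30.0%, and within 10 kb of 8 (21.1%, 9.55 to 37.3), beside 9.67%. The 2 genes of replicate 1 were Tcf7 and Tcf7l1. The 13 of replicate 2 differed from the 13 of the whole-series list by 1 gene each way: Apc was absent, and Csnk1a1, a casein kinase 1 gene of the destruction complex, was present with a peak 25674 bp upstream of a start at a signal of 7.68 and a deposited q of 0.0928. On mm10, where only the RefSeq gene start was used, the optimal list placed a peak within 50 kb of 12 genes (31.6%, 17.5 to 48.7), beside 19.5% of 20314 other genes, and within 10 kb of 8 (21.1%, 9.55 to 37.3), beside 5.59%. Apc and Dvl3 had no optimal peak within 50 kb, and Porcn, without a whole-series peak in that window, had one. The share of other genes lay inside the interval at 50 kb in all of these lists; at 10 kb it lay below the interval on mm10 and inside it in each replicate list.

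**Figure D1:**
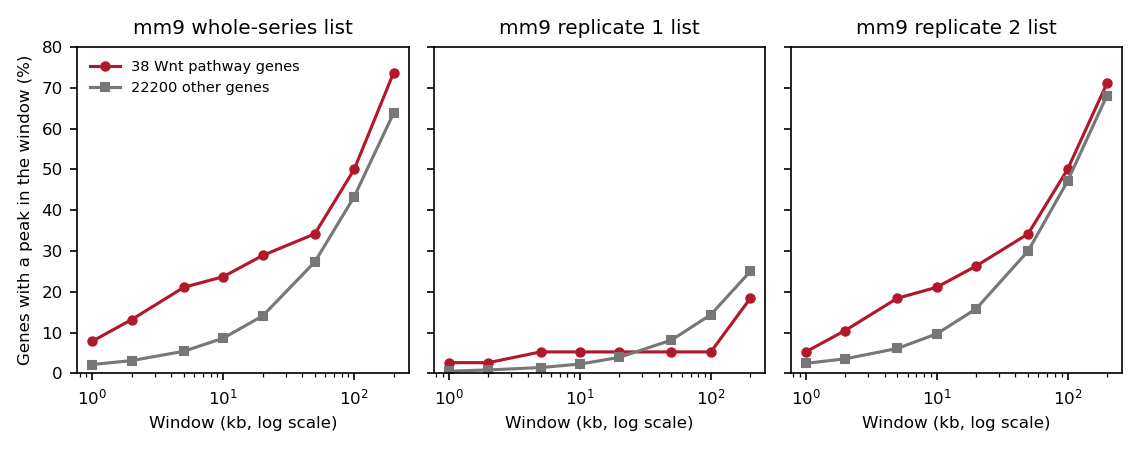
Share of genes (%) with a peak centre within a window of a transcript start, against the window in kb on a log scale, for the 38 Wnt pathway genes and the 22200 other protein-coding genes in the 3 mm9 lists. In the whole-series list the Wnt genes stand at 7.89% (3 genes, any annotated start counted) against 2.17% at 1 kb. At 20 kb they stand at 28.9% against 14.1%. In the replicate 1 list they stay at 5.26% from 5 to 100 kb.

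As the plot of shares by window shows, the Wnt genes lay above the other genes in the whole-series list at each of the windows drawn, and the ratio between the curves was larger at short distances. At 5 kb it was 21.1% against 5.42%, and at 200 kb 73.7% against 63.8%. The share at 1 kb rested on 3 genes, Fzd10, Apc and Tcf7l1, with any annotated start counted. From the 5′-most start the Tcf7l1 peak lay 1679 bp downstream. The Apc peak, in neither replicate list, lay 79917 bp downstream of its 5′-most start. In the replicate 1 list the order turned between 20 and 50 kb, with 5.26% of the Wnt genes and 8.16% of the others at 50 kb. The median distance from a gene to its nearest whole-series peak was 99.8 kb for the 38 genes and 126 kb for the others. The Wnt genes also stood in sparser surroundings: a median of 1 other protein-coding gene had a start within 50 kb of theirs, against 2 for the other genes. The nearest gene to the peak was the Wnt gene itself in 18 of 19 pairs of gene and peak (94.7%), against 46.9% of the 7865 pairs of the other genes. The exception was Dvl3, whose peak lay closer to Eif2b5.

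**Figure D2:**
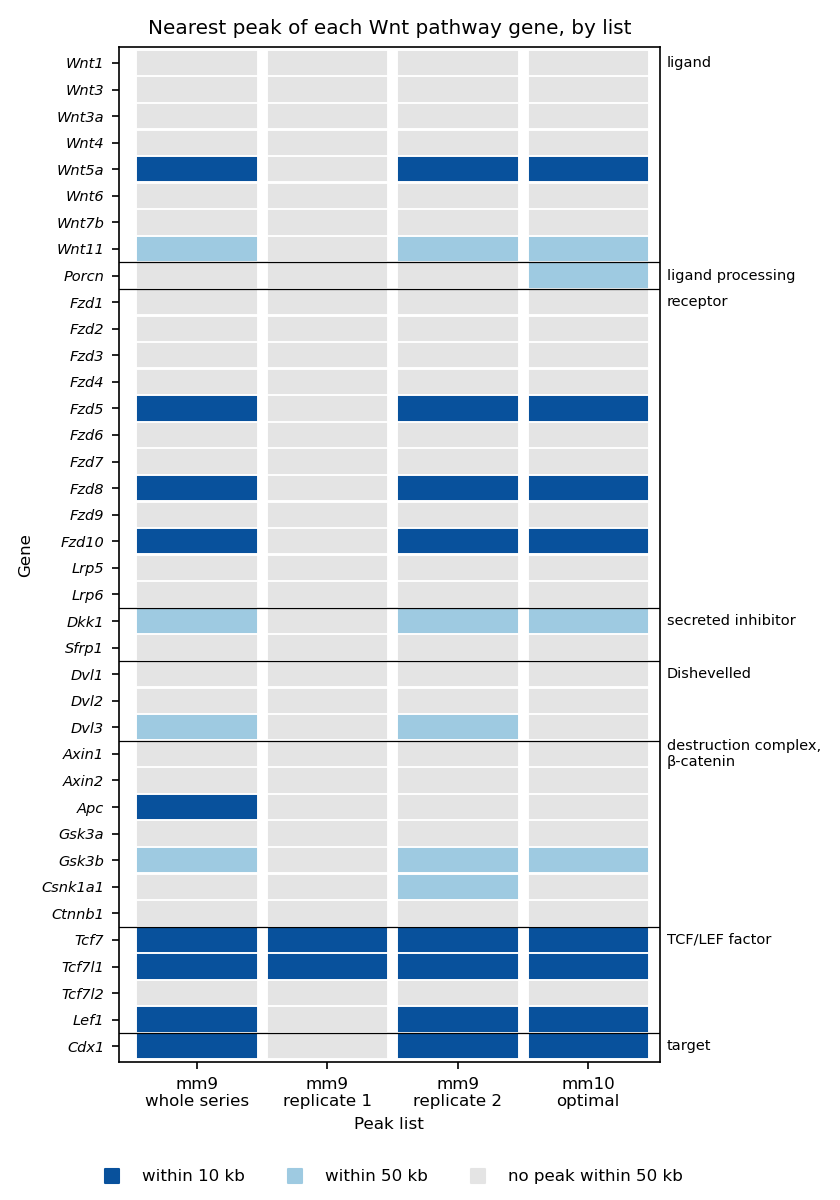
Nearest peak of each of the 38 Wnt pathway genes in the 3 mm9 lists and the mm10 optimal list, with genes in rows ordered by step of the pathway and the colour giving the narrower of the 10 kb and 50 kb windows that held a peak. The replicate 1 column is filled at Tcf7 and Tcf7l1 only, and Porcn is filled in the mm10 column only.

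By step of the pathway, the whole-series list had a peak within 50 kb of 3 of 4 TCF/LEF factor genes, 3 of 12 receptor genes, 2 of 8 ligand genes, 2 of 7 genes of the destruction complex and β-catenin, 1 of 3 Dishevelled genes, 1 of 2 secreted inhibitor genes, 0 of 1 ligand processing gene and the 1 target gene, Cdx1. Within 10 kb the counts were 3 of 4 TCF/LEF factor genes, 3 of 12 receptor genes, 1 of 8 ligand genes, 1 of 7 genes of the destruction complex and β-catenin, and Cdx1. The share of other genes in this list was 27.3% at 50 kb and 8.63% at 10 kb. In the replicate 1 list only TCF/LEF factor genes had a peak, 2 of 4 in either window. The steps hold too few genes for shares between them to be set apart.

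Among the ligands, Wnt5a, which signals mostly through β-catenin-independent routes, had the stronger peak. It lay in an intron 1574 bp downstream of the nearest start and 8275 bp downstream of the gene's 5′-most start (chr14:29326019-29326403). Its signal was 7.52 in the whole-series list and 11.98 in the replicate 2 list, and the replicate 1 list had no peak there. The replicate 2 list held another Wnt5a peak, 29515 bp upstream with a signal of 10.58, that the whole-series list lacked.

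Wnt11, a ligand with roles in gastrulation movements and heart development, had an intergenic peak 10752 bp upstream (chr7:105972680-105973060), just outside the narrower window. Its signal was 5.58 in the whole-series list and 9.07 in replicate 2, with none in replicate 1. The other 6 ligand genes had no peak within 50 kb: the nearest lay 53.1 kb from Wnt6, 80.5 kb from Wnt1, 119 kb from Wnt7b, 240 kb from Wnt3, 281 kb from Wnt3a and 296 kb from Wnt4. Wnt6 was the gene just outside the 50 kb window, and Dkk1, at 44.0 kb, the gene just inside it. Porcn, the ligand acyltransferase gene, had its nearest peak at 155 kb.

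Among the receptors, Fzd8 had the strongest peak, 2303 bp downstream of the start and in the 3′ UTR of this short gene, with a composite element near its centre. The whole-series signal was 7.64. The replicate 2 list had 2 peaks inside the whole-series peak, with signals of 15.12 and 7.56 and a deposited q of 0.1092 for the weaker, and replicate 1 had none.

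Fzd5 also had its peak in the 3′ UTR, 4111 bp downstream of the start (chr1:64780028-64780399), with a signal of 5.58 in the whole-series list, 9.83 in replicate 2 and none in replicate 1. Fzd10 had its peak centre 162 bp upstream of the start (chr5:129106403-129106711), inside an exon of the neighbouring transcript 5930412G12Rik, with a signal of 5.58 in the whole-series list, 9.07 in replicate 2 and none in replicate 1. The window around the Fzd10 centre was 72.6% G and C, the highest of the 19 peaks, whose median was 49.3%, against 46.3% over all peaks. The 7 other Frizzled genes outside the 50 kb window had their nearest peaks at 54.3 kb (Fzd1), 58.8 kb (Fzd7), 64.6 kb (Fzd2), 131 kb (Fzd4), 203 kb (Fzd3), 238 kb (Fzd9) and 595 kb (Fzd6), the last being the farthest of the 38 genes. The co-receptor genes Lrp5 and Lrp6 had theirs at 60.9 and 128 kb.

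Dkk1, which encodes a secreted inhibitor that binds LRP5 and LRP6, had an intergenic peak 44033 bp downstream of its start (chr19:30579865-30580380) and no other gene start within 50 kb of that peak. The signal was 5.58 in the whole-series list and 8.31 in replicate 2, with none in replicate 1. Sfrp1, a secreted Frizzled-like antagonist gene, had its nearest peak at 142 kb. Dvl3, 1 of the 3 Dishevelled genes, had a peak 36714 bp upstream (chr16:20480196-20480486), with a signal of 4.41 in the whole-series list and 8.31 in replicate 2 and none in replicate 1; the start of Eif2b5, a translation initiation factor gene, was closer to it. Dvl1 and Dvl2 had their nearest peaks at 130 and 154 kb.

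In the destruction complex, Gsk3b, which encodes a kinase of β-catenin, had an intergenic peak 18818 bp upstream (chr16:38070104-38070435). The signal was 5.02 in the whole-series list and 8.31 in replicate 2, with none in replicate 1. Apc, the scaffold gene, had the weakest of the 19 peaks, with a signal of 3.52 at rank 5449 of 5515, and neither replicate list held a peak there. That peak lay 420 bp upstream of an internal transcript start and 79917 bp downstream of the gene's 5′-most start, so Apc left both counts when 1 start per gene was used, giving 12 genes at 50 kb beside 25.0% and 8 at 10 kb beside 6.92%. Requiring overlap with at least 1 replicate list, an alternative chosen after the data had been seen, gave 12 genes at 50 kb beside 24.8% and 8 at 10 kb beside 7.73%. The nearest peaks of the remaining genes of this step lay at 156 kb (Csnk1a1), 239 kb (Ctnnb1, the β-catenin gene), 275 kb (Axin1), 358 kb (Gsk3a) and 533 kb (Axin2, a feedback inhibitor and common readout of the pathway).

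**Figure D3:**
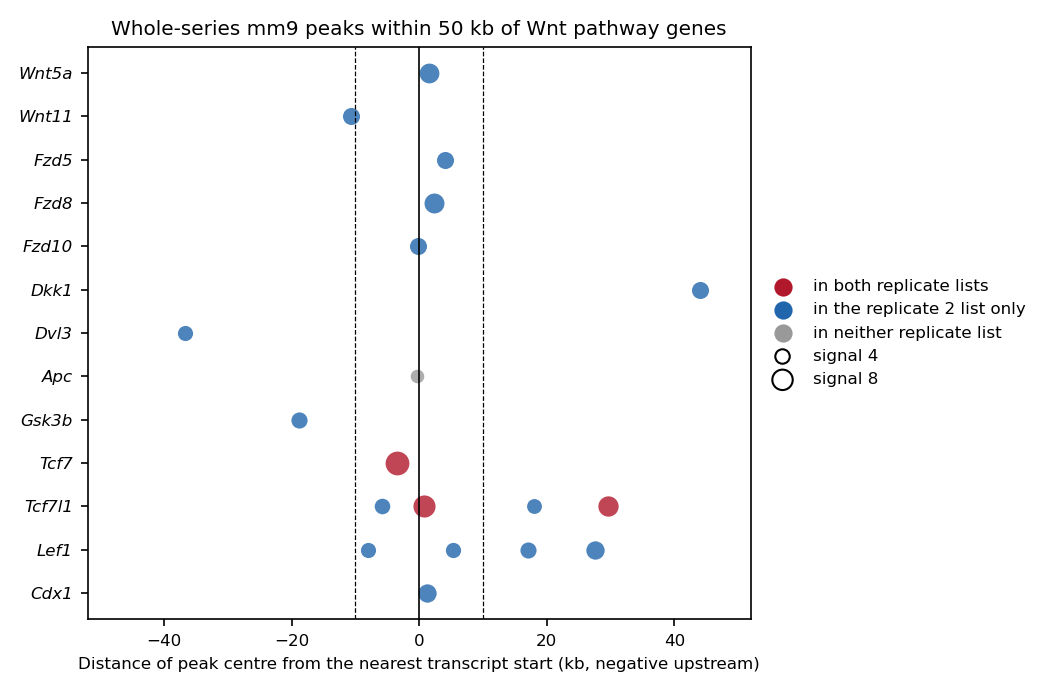
The 19 whole-series peaks within 50 kb of Wnt pathway genes, by distance of the peak centre from the nearest transcript start of the gene in kb, with point area proportional to deposited signal and colour giving the replicate lists that held an overlapping peak. The 3 peaks in both replicate lists belong to Tcf7 and Tcf7l1, and 11 of 19 lie between the dashed lines at 10 kb.

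The TCF/LEF factor genes held 9 of the 19 peaks. Tcf7, which encodes the factor TCF1, had 1 peak, 3411 bp upstream (chr11:52099786-52100398), the one with the composite element printed above. Its signal was 10.87 in the whole-series list, 11.2 in replicate 1 and 17.38 in replicate 2. It ranked 281 of 5515, 105 of 1330 and 345 of 6324 by signal, the highest rank of any Wnt gene peak in each list.

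Tcf7l1, which encodes the repressor TCF3 of older nomenclature, had 4 peaks. The strongest lay in an intron, 740 bp downstream of the nearest start and 1679 bp downstream of the 5′-most start (chr6:72737298-72737841). Its signal was 9.4 in the whole-series list, 6.84 in replicate 1, which was the median signal of that list, and 15.87 in replicate 2. The intronic peak 29615 bp downstream (chr6:72708387-72709002) had a signal of 7.93 in the whole-series list, 6.22 in replicate 1 and 11.34 in replicate 2; in replicate 1 its deposited q was 0.1855. The remaining 2, at 5856 bp upstream and 17969 bp downstream, had whole-series signals of 4.66 and 4.25 and replicate 2 signals of 5.29 and 7.3, and replicate 1 had neither. The 2 stronger Tcf7l1 sites were found in both replicates and the 2 weaker ones in replicate 2.

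Lef1 also had 4 peaks, all of them in the replicate 2 list and none in the replicate 1 list. The strongest lay in an intron, 27512 bp downstream of the nearest start and 29847 bp downstream of the 5′-most start (chr3:130843035-130843437). Its signal was 6.46 in the whole-series list and 12.09 in replicate 2. The nearest, with the octamer, lay 5327 bp downstream of the nearest start and 7662 bp downstream of the 5′-most start (chr3:130820838-130821264), with signals of 4.46 and 7.05. The other two, 16993 bp downstream and 8013 bp upstream, had whole-series signals of 4.99 and 4.41 and both had 7.56 in replicate 2. Tcf7l1 and Lef1 were thus 2 of 38 Wnt genes with at least 4 peaks within 50 kb (5.26%), a number reached by 93 of the 22200 other genes (0.419%); the number 4 was set after these peaks had been seen. Tcf7l2 had its nearest peak at 175 kb.

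Cdx1, a caudal-type homeobox gene and known target of Wnt signalling, had an intronic peak 1234 bp downstream of its start. The signal was 6.46 in the whole-series list and 9.83 in replicate 2, with none in replicate 1. Pdgfrb and Slc6a7 also had starts within 50 kb of that peak, farther away than Cdx1.

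**Figure D4:**
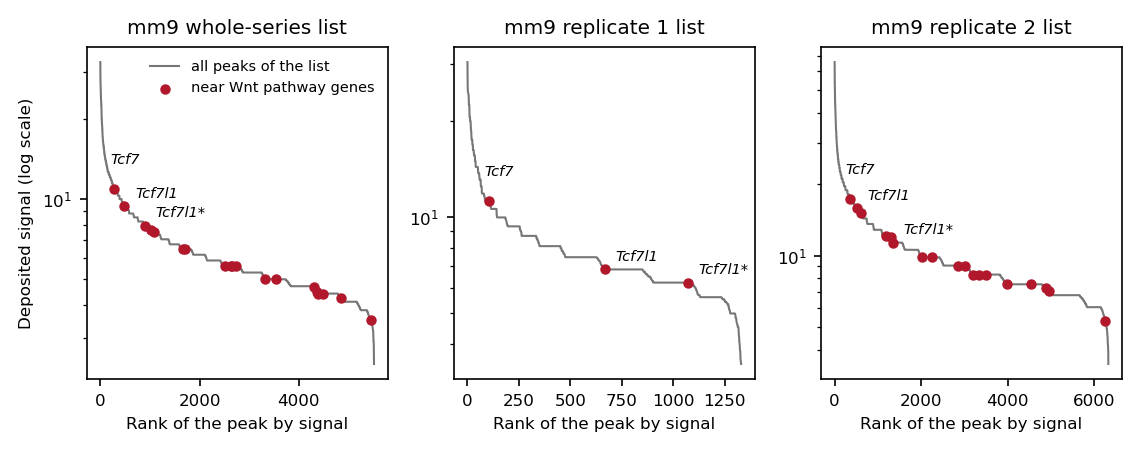
Deposited signal on a log scale against the rank of the peak by signal in each mm9 list, with all peaks as a line and the whole-series peaks near Wnt pathway genes that are found in that list as points (Tcf7l1* is the peak 29615 bp downstream). Tcf7 stands highest in each panel, and the points run down to rank 5449 in the whole-series list.

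The 19 peaks were not strong as a group. Their median signal in the whole-series list was 5.58, the same as that of all 5515 peaks, their range was 3.52 to 10.87, and 2 of them, at Tcf7 and Tcf7l1, were among the 500 peaks of highest signal, as the plot of signal by rank shows. By location, 9 lay in introns, 3 in exons and 7 between genes. Of the 19, 3 overlapped a replicate 1 peak (15.8%, 3.38 to 39.6), against 22.7% of all whole-series peaks, and 18 overlapped a replicate 2 peak (94.7%, 74.0 to 99.9), against 86.7%. For both replicates the share over all peaks lay inside the interval, which again treats peaks of the same gene as independent. The smaller replicate 1 list leaves less to overlap with, and a peak missing from it is not shown to be unbound in that replicate.

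The mm10 relaxed lists, ranked by signal, show where some of these sites stood in replicate 1 below the mm9 list. Distances on mm10 are from the RefSeq gene start and are set beside the mm9 ones without any conversion of coordinates. Of the 16 optimal peaks within 50 kb of Wnt genes, 7 overlapped the 4000 strongest entries of each replicate (43.8%), against 43.1% of all optimal peaks. Optimal peaks 30422 and 30195 bp downstream of the Tcf7l1 start overlap each other but count separately in the 16 and the 7. Both ranked 1646 in replicate 1 and 1080 in replicate 2. The optimal peak at Tcf7, 3193 bp upstream (chr11:52286500-52286637), ranked 139 in replicate 1 and 103 in replicate 2. That at Tcf7l1, 1469 bp downstream (chr6:72787408-72787743), ranked 241 and 774.

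Cdx1, Fzd10 and Wnt11 had no replicate 1 peak on mm9, yet their mm10 sites stood high in both replicates. The Cdx1 optimal peak, 1249 bp downstream, ranked 883 in replicate 1 and 1030 in replicate 2. The Fzd10 optimal peak, 401 bp upstream (chr5:128600537-128600872), ranked 2186 and 2724. The Wnt11 optimal peak, 10703 bp upstream (chr7:98824213-98824548), ranked 1980 and 1813. All 3 were thus among the 4000 strongest entries of each replicate on mm10; an entry at any rank says little, since 14 of the 16 optimal peaks near Wnt genes have one in both lists.

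Other sites stood high in replicate 2 only. The Lef1 optimal peak 30019 bp downstream (chr3:131140148-131140483) ranked 699 in replicate 2 and 161143 in replicate 1, and the one 7875 bp upstream ranked 2541 and 137229. The optimal peak at Wnt5a, 8476 bp downstream (chr14:28512851-28513186), ranked 763 in replicate 2 and 11679 in replicate 1. It was also in the authors' conservative mm10 list of 2676 peaks, which held none of the other peaks named in this paragraph. The optimal peaks at Dkk1 and Gsk3b, 43818 bp downstream and 18827 bp upstream, ranked 2582 and 2527 in replicate 2 and 54062 and 16809 in replicate 1. The Fzd5 optimal peak, 4068 bp downstream, ranked 1705 in replicate 2 and overlapped no entry of the replicate 1 list. The Porcn optimal peak, 38526 bp downstream (chrX:8167854-8168189), ranked 3543 in replicate 2 and 96027 in replicate 1, and the mm9 whole-series list had no peak within 50 kb of this gene.

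At Fzd8 the lists did not give the same site. The highest entry within 10 kb of the gene start stood 2279 bp downstream in replicate 1, at rank 4885, and 2266 bp downstream in replicate 2, at rank 725, and these overlapped each other. The optimal list held instead a peak 3901 bp downstream, which ranked 10059 and 4265. At Lef1 the highest entries within 10 kb were different sites in the 2 replicates. In replicate 1 it lay 5045 bp downstream at rank 2051, a site that ranked 260066 in replicate 2. In replicate 2 it lay 7869 bp downstream at rank 1840, a site that ranked 51159 in replicate 1. Neither site was in the optimal list. On mm9 the octamer peak of Lef1 lay 5327 bp downstream of its nearest start but 7662 bp downstream of the 5′-most start. Over all 38 genes, 7 had an entry among the 4000 strongest of replicate 1 within 10 kb of the gene start (18.4%). In replicate 2 there were 8 (21.1%), and 5 had one in both (13.2%). The shares of the other genes were 5.86%, 5.49% and 2.63%. An entry in both need not be the same site. At Fzd10, Tcf7, Tcf7l1 and Cdx1 the highest entries of the 2 replicates were the same site, and at Lef1 they were not.

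Other genes of the pathway, 69 named by step, gave 24 with a whole-series peak within 50 kb (34.8%) and 9 within 10 kb (13.0%), beside the same 27.3% and 8.63% of other genes. In the replicate 1 list 5 of the 69 had a peak within 50 kb (7.25%, below the 8.16% of other genes), and in the replicate 2 list 26 (37.7%, beside 30.0%). The mm10 optimal list placed a peak within 50 kb of 13 of the 69 (18.8%, below the 19.5% of other genes). Within 10 kb it did so for 5 (7.25%, beside 5.59%). The 9 with a whole-series peak within 10 kb included the ligand gene Wnt8a, 9566 bp downstream at a signal of 6.75. Among them were also the antagonist gene Sfrp2, 75 bp upstream at 4.41, and the casein kinase gene Csnk1e, 2110 bp downstream of its nearest start at 4.7. They also included Btrc, which encodes the ubiquitin ligase subunit that recognises phosphorylated β-catenin, 6647 bp upstream at 9.1.

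A further 3 of the 9 were near a peak only through an internal transcript start, as Apc was. The peak of the ligand gene Wnt5b, with a signal of 5.87, lay in an intron, 68 bp upstream of an internal start and 94864 bp downstream of the 5′-most start. That of the R-spondin receptor gene Lgr5, with a signal of 8.22, lay in an intron, 6170 bp upstream of an internal start and 118531 bp downstream of the 5′-most start. That of the TCF co-repressor gene Tle1, with a signal of 9.1, lay in an intron, 4926 bp upstream of an internal start and 54680 bp downstream of the 5′-most start. None of these 3 genes had an mm10 optimal peak within 50 kb of the RefSeq gene start, a measure that does not use internal starts.

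The target genes T and Cdx2 completed the 9 within 10 kb. The peak 4272 bp upstream of T, the Brachyury gene, had a signal of 3.3 and lay in neither replicate list. Cdx2 had a peak 2739 bp downstream, at 5.29 in the whole-series list, 5.6 in replicate 1 and 6.8 in replicate 2, and a second 120 bp upstream, at 4.7 in the whole-series list and 5.6 in replicate 1, with none in replicate 2. Of the 6 other pathway genes with the highest signals within 50 kb, 4 were farther than 10 kb away: Dkk3, 48149 bp downstream at 12.33, Cdx4, 20543 bp downstream at 12.04, Wif1, 31607 bp upstream at 10.57, and Ccnd1, 49394 bp downstream at 9.1. For the last 3 the nearest gene start to the peak was that of another gene, Chic1, Lemd3 and Fgf15 respectively. The Dkk3 peak lay in the 3′ UTR of Usp47, and the Ccnd1 peak lay 51066 bp downstream of its 5′-most start. The Dkk3, Cdx4, Ccnd1 and Btrc peaks overlapped a peak of each replicate list, and the Wif1 peak overlapped a peak of replicate 2 only.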

How the data were processed

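POU5F1 ChIP-seq peaks from 2 biological replicates were analysed as deposited. Each mm9 list gives, as the authors deposited it, a signal, a −log10 p and a q-value for every peak; there is a list per replicate and 1 of the whole series. The mm10 lists give a deposited signal, used for ranks. Ties in signal were ordered by the deposited −log10 p on mm9 and by file order on mm10. The scaling of the signal, the aligner, the peak caller and the threshold of the irreproducible discovery rate step behind the optimal list are not given in the sources used here. Replicate numbers come from the labels. No list gives read depth.

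Genes were counted as near a peak if any annotated transcript start of theirs in GENCODE M1 (NCBIM37, mm9) lay within 50 kb or 10 kb of the peak centre; on mm10, RefSeq GRCm38 gene starts and peak summits were used, with strand taken from GENCODE by symbol. Peaks were shared at 1 bp of overlap. No p-value was computed, since there is 1 group; shares are set beside those of all other protein-coding genes, with exact (Clopper-Pearson) 95% intervals. Motifs were searched on both strands within 100 bp of the peak centre. Python 3.11.15, scipy 1.17.1, numpy 2.4.6, pysam 0.24.0 and matplotlib 3.10.9 were used, and the distance, overlap and motif steps were tested on simulated data. Each of the 38 genes with a whole-series peak within 50 kb is named with its strongest and nearest peak, the others with their distance; of the 69 further pathway genes, those within 10 kb and the 6 with the highest signal. The genes, lists and rules were chosen with earlier results of these data known. Alternatives covered windows, thresholds, gene assignment, overlap, motif mismatches and each replicate list alone.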

Additional observations from a re-analysis of the deposited data

How the results depend on the processing

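Leaving out 1 replicate, that is, using the other replicate's mm9 list in place of the whole-series list, gave 2 to 13 of the 38 Wnt genes within 50 kb, 2 to 8 within 10 kb and 5 to 26 of the 69 further pathway genes within 50 kb. Replicate 1 alone gave the low value each time, and the share of other genes moved with it, from 8.16% to 30.0% at 50 kb and from 2.28% to 9.67% at 10 kb. Restricting the whole-series list to peaks in both replicate lists, chosen after the data had been seen, gave 2 genes at 50 kb, beside 7.66% of other genes, and 2 at 10 kb, beside 2.15%. On mm10, keeping optimal peaks among the 4000 strongest of each replicate gave 5 of 38 genes, beside 9.04%, and the conservative list gave 8, beside 13.7%. The composite element was found in 1 peak with 1 mismatch (1.89% of all peaks), in 5 with 3 mismatches (28.6%) and in 1 within 50 bp of the centre (7.33%). Of the further pathway genes, 9 had a peak at 10 kb. For the 38 genes the 50 kb count was 19 at 100 kb (43.3% of other genes), 15 by nearest start (17.4%), 13 by peak edge (27.4%) and 9 with a −log10 p of at least 10 (16.5%); the 10 kb count was 8 at 5 kb (5.42%), 11 at 20 kb (14.1%), 9 by peak edge (8.78%) and 7 with that threshold (4.91%). The cause of these shifts was not tested. No paired analysis was possible because the 2 replicates form 1 group. Read depth is unknown, and the counts have no replicate error beyond the 2 lists.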

Other observations

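The 13 Wnt genes with a whole-series peak within 50 kb had a median of 4 starts and no other protein-coding gene within 50 kb at the median, and the 25 without one had a median of 2 starts and 1 other gene. Of the 13, 5 (Fzd5, Fzd8, Fzd10, Dkk1 and Cdx1) had 1 annotated start. With 1 start per gene, the 5′-most, 12 genes had a peak and Apc was the gene lost. The part of the number of starts in the counts was not tested further.

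Among genes without a peak in the 50 kb window, assignment by nearest start at any distance added Fzd1, Fzd7 and Tcf7l2 and left out Dvl3. In the mm10 relaxed lists, Wnt7b had an entry at rank 1147 of replicate 1 within 10 kb of its start, 4842 bp downstream, that overlapped no entry of replicate 2, and Fzd7 had one at rank 1846, 9488 bp upstream, that ranked 129362 in replicate 2. These 2 genes, chosen after their values had been seen, were high in replicate 1 without a matching entry of similar rank in replicate 2. The same held for the Lef1 entry at rank 2051 of replicate 1, which ranked 260066 in replicate 2.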
